A study of Homo sapiens with 48 samples.

Results

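RELB chromatin binding after 6 h of TWEAK was compared with RELB binding in vehicle-treated L3.6pl cells, an established human pancreatic cancer cell line. ChIP-seq was carried out in 3 samples per condition, and the deposited peaks of the 3 samples were merged into 1 narrow peak list for TWEAK and 1 for vehicle. The vehicle was PBS, and its duration is not given. Further lists of the series were used only as annotation of the RELB regions: RELA and RELB after vehicle, TWEAK or TNFα for 30 min or 6 h, broad H3K27ac peaks in the same conditions, and the AP-1 subunit FOSL1 in vehicle. On chromosomes 1 to 22 and X, a region of the TWEAK list was called kept when it shared at least 1 bp with a vehicle region and gained when it did not. A vehicle region without such an overlap was called missing. Regions in tandem repeats were left out. These are regions in which the 1000 bp around the summit matched itself at 0.4 or more of its bases at some shift of up to 400 bp. This left 1437 gained, 199 kept and 91 missing regions, 1727 of the 392221 regions in all 16 lists.

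TWEAK is a ligand of the TNF family that binds TNFRSF12A. In the noncanonical NF-κB pathway, loss of the TRAF2, TRAF3 and BIRC2 or BIRC3 complex stabilizes the kinase MAP3K14, the NFKB2 product p100 is processed to p52, and RELB with p52 enters the nucleus. RELA acts mainly in the canonical pathway that TNFα triggers within minutes. H3K27ac marks active promoters and enhancers, and FOSL1 is a member of the AP-1 family that is abundant in many epithelial cancers. The line carried the H3K27ac pattern of an epithelial cell: in vehicle, a peak lay at a start site of 6 of 6 epithelial markers (KRT8, KRT18, KRT19, KRT7, EPCAM and CDH1). It lay at 1 of 4 fibroblast markers (COL1A1), 0 of 4 leukocyte, 0 of 2 endothelial, 0 of 4 acinar and endocrine and 0 of 2 hepatocyte markers.

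The sequence under the summits differed by group. The hg38 reference is shown for 101 bases centred on a summit, on the forward strand, with matches to the NF-κB consensus and to the AP-1 motif TGANTCA in capitals. The first 4 are among the 12 gained regions of highest fold enrichment, and RELB and TNFAIP3 were added as genes of the pathway itself.
CRTAC1, chr10:97882692-97882792: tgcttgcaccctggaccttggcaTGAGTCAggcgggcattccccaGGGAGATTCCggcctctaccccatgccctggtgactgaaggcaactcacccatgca
TNIP2, chr4:2746253-2746353: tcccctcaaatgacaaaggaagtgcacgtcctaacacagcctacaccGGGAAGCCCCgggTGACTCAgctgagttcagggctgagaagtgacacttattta
KLF11, chr2:10036161-10036261: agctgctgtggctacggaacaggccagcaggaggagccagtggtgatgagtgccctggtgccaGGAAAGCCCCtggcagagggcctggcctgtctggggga
CAPN2, chr1:223726749-223726849: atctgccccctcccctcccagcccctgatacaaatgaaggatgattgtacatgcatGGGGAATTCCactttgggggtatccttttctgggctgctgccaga
RELB, chr19:45001326-45001426: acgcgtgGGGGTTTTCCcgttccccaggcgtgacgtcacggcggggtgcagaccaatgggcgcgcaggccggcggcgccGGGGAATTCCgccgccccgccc
TNFAIP3, chr6:137873531-137873631: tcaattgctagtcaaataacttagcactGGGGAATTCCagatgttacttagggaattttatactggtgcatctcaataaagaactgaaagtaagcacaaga
The CRTAC1 and TNIP2 windows hold both motifs, and in TNIP2 they lie almost side by side. The window upstream of the RELB gene itself holds NF-κB matches on either side of the summit. The next pair of regions was gained without a match to this NF-κB consensus, and matches to a looser form of it were not marked.
PSMB7, chr9:124392990-124393090: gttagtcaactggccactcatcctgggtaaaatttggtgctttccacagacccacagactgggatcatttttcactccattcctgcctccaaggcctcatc
IFNGR2, chr21:33383183-33383283: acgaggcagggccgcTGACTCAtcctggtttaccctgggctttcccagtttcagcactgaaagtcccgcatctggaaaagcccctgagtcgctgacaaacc
Of the kept regions, those upstream of BIRC3 and CYLD are shown.
BIRC3, chr11:102317285-102317385: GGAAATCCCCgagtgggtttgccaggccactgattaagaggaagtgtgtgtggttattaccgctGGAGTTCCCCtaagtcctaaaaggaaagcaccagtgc
CYLD, chr16:50741860-50741960: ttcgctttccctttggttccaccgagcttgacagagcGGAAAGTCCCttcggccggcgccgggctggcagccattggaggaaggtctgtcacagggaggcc
Both windows hold an NF-κB match and neither holds an AP-1 match.

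After TWEAK there were 1636 RELB regions outside tandem repeats and in vehicle 290, a ratio of 5.64 (exact 95% interval 4.98 to 6.41). In tandem repeats the order was the opposite, with 2402 and 3795 regions, a ratio of 0.633 (0.601 to 0.666). Gained regions outnumbered missing regions 15.8 times (12.8 to 19.7). With tandem repeats included there were 1826 gained and 1891 missing regions, so the whole lists held no such excess. Of all TWEAK regions, tandem repeats included, 45.2% overlapped no vehicle region, and of all vehicle regions 46.3% overlapped no TWEAK region. Outside tandem repeats, 1437 of 1636 and 91 of 290 did, against these shares. Gained regions rarely lay just beside a vehicle region: 6 of 1437 had one within 500 bp. When both lists were reduced to their 290 strongest regions outside tandem repeats, 172 were gained, 118 kept and 172 missing. Equal lengths make gained and missing numbers equal, so the excess of gained regions depends on the longer TWEAK list. Each list pools its samples, so no spread between replicates can be given and no test across replicates was made. All intervals treat regions as units and cover counting error only, and depth is unknown.

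The kept and missing groups depended strongly on the self-match limit: at 0.5 instead of 0.4 there were 1496 gained, 415 kept and 250 missing regions. A self-match of 0.35 or more was found at 104 of the 1437 gained, 34 of the 199 kept and 17 of the 91 missing regions. The TWEAK region just under it, beside SWAP70, had a self-match of 0.3998 and a fold enrichment of 10.7. The one just over it, beside C2CD2, had 0.4008 and 7.39. In the vehicle list the region beside CECR2 had 0.3991 and a fold enrichment of 4.92, and that beside CCDC200 had 0.4003 and 2.93. Between 0.38 and 0.42 lay 53 TWEAK and 44 vehicle regions.

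An NF-κB match within 100 bp of the summit was present at 65.6% of gained regions (exact 95% interval 63.1 to 68.1), 45.2% of kept regions (38.2 to 52.4) and 3.30% of missing regions (0.685 to 9.33). The consensus has 10 letters and was searched on both strands. In the same 200 bp around 19933 protein-coding start sites it was found at 4.05%. These are the starts of whole genes, whereas promoter shares and distances use the starts of all their transcripts. The consensus was found at 2.19% of 47957 FOSL1 regions that lay outside tandem repeats and in none of the RELA or RELB lists. These FOSL1 comparison regions were selected by binding of an AP-1 subunit and by absence from the RELA and RELB lists. They are therefore no neutral background for the NF-κB or AP-1 motif. The share in gained regions was 20.4 percentage points higher than in kept regions (Newcombe 95% interval 13.0 to 27.6) and 62.3 points higher than in missing regions (55.9 to 65.6). The difference from kept regions was 41.5 points with a self-match limit of 0.5 and 12.3 points without the regions called in all 10 RELA and RELB lists. The counting interval of the missing regions includes the share at start sites.

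The matches sat close to the summit. In the 943 gained regions with a match, the nearest one was centred a median of 14 bp from the summit, and in 74.0% it lay within 25 bp. In the 90 kept regions with a match the median was 9 bp and 91.1% lay within 25 bp. The commonest letters were GGGACTTTCC, read on either strand, in 136 gained regions (9.46%) and in 3 of the FOSL1 regions outside the RELA and RELB lists. GGGGAATTCC followed in 110 gained regions, GGGAATTTCC in 81, GGGGCTTTCC in 80 and GGGGATTTCC in 79. These 5 made up 42.6% of the 1141 pairs of a gained region and a match, which used 48 different words of 10 letters. The palindrome GGGAATTCCC occurred in 69 gained and 7 kept regions. At least 2 matches were present in 183 gained and 19 kept regions.

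The AP-1 motif TGANTCA was present at 36.5% of gained (34.0 to 39.1), 28.1% of kept and 2.20% of missing regions (0.267 to 7.72). The FOSL1 comparison regions held it at 50.1% and start sites at 3.88%. Gained exceeded kept regions by 8.39 points (1.34 to 14.7), a difference that was lost with a window of 100 bp (2.23 points). Both motifs together occurred at 20.4% of gained regions, and neither at 18.2% of gained, 43.7% of kept and 94.5% of missing regions. AP-1 letters lay farther from the gained summits than NF-κB letters, at a median of 32.5 bp. The TEAD motif GGAATG, which some NF-κB matches contain, was found at 16.1% of gained, 13.1% of kept, 11.0% of missing and 14.7% of FOSL1 comparison regions. For TEAD the gained minus kept difference of 3.01 points (−2.68 to 7.47) included 0.

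**Figure D1:**
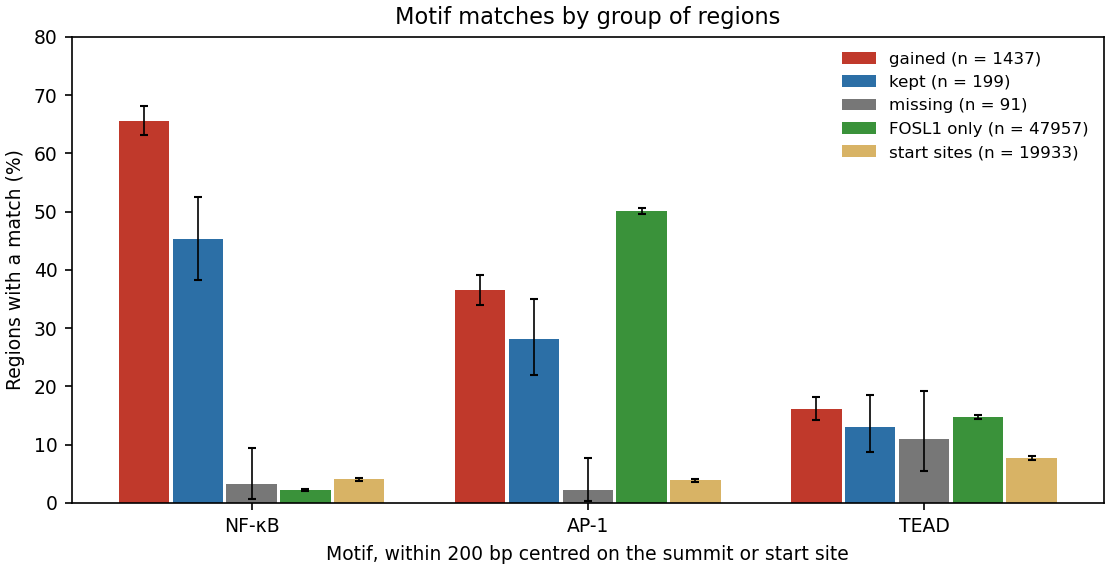
Percentage of regions with a match to the NF-κB, AP-1 (TGANTCA) or TEAD (GGAATG) motif, with exact 95% intervals as error bars. NF-κB matches reach 65.6% of gained and 45.2% of kept regions but 3.30% of missing regions. AP-1 matches are most frequent, at 50.1%, in the FOSL1 comparison regions, which were selected by FOSL1 binding.

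Gained RELB regions were mostly distal. Of the 1437 summits, 19.6% (17.6 to 21.8) lay within 1 kb of a protein-coding start site, 2.23% in another exon, 35.2% in an intron and 42.9% between genes. By bases, 4.33% of the genome is promoter by the same definition, 2.52% exon, 38.3% intron and 54.8% intergenic. The promoter share was 14.6% (9.98 to 20.3) for kept and 7.69% (3.15 to 15.2) for missing regions. Gained exceeded missing regions by 11.9 points (4.33 to 16.4), and the difference from kept regions, 5.05 points (−0.860 to 9.79), included 0. Counted with the start sites of all annotated genes, the promoter shares of gained, kept and missing regions were 26.4%, 30.7% and 24.2%, and gained minus missing, 2.27 points, was no longer past 0.

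The median distance to a start site was 14536 bp for gained, 17974 bp for kept and 78216 bp for missing regions, and 14832 bp for the FOSL1 comparison regions. More than 50 kb from a start site lay 26.3% of gained (24.0 to 28.7), 33.2% of kept and 56.0% of missing regions (45.3 to 66.4). Of the 282 gained promoter summits, 182 lay within 250 bp of the start and 179 upstream of it. Gained regions were scattered: 15.3% had another gained summit within 50 kb and 5.22% within 10 kb. Per Mb of known sequence, chromosome 15 held most gained regions, 0.898, and chromosome X fewest, 0.0839, around a median of 0.505 over chromosomes. On chromosome X there were 13 gained, 0 kept and 7 missing regions.

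**Figure D2:**
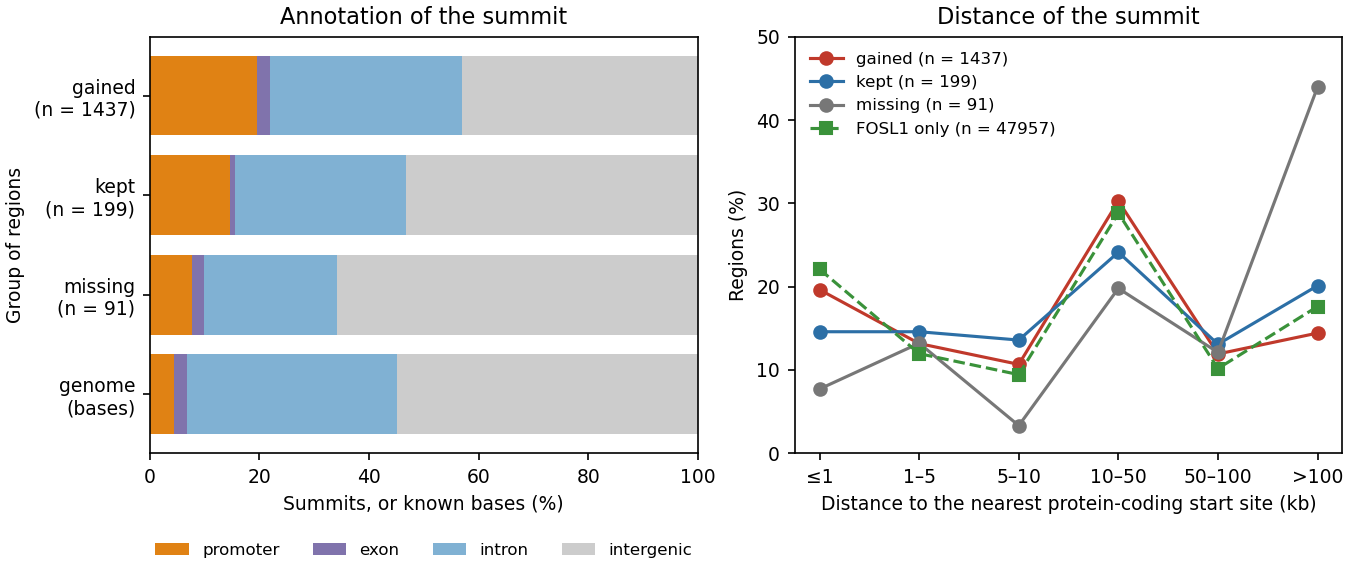
Left, percentage of summits (or of known genome bases) in promoters within 1 kb of a protein-coding start site, other exons, introns and intergenic sequence. Right, percentage of regions by distance from the nearest protein-coding start site. Gained regions follow the FOSL1 comparison regions, with 19.6% and 22.1% in the nearest bin, whereas missing regions pile up beyond 100 kb (40 of 91).

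Promoter and distal gained regions differed in sequence. At promoters, 79.1% held an NF-κB match and 18.1% an AP-1 match, against 62.3% and 41.0% away from promoters. The differences were 16.7 points (10.9 to 21.9) for NF-κB and −22.95 points (−27.9 to −17.3) for AP-1. An H3K27ac peak was present in vehicle at 91.5% of promoter and 68.2% of distal gained regions, and FOSL1 at 71.3% and 58.7%. Gained regions without an NF-κB match carried the AP-1 motif more often than those with one, at 47.0% against 31.1%, and FOSL1 more often, at 72.5% against 55.2%.

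Most gained regions lay in chromatin that already carried H3K27ac or FOSL1 in vehicle. An H3K27ac peak lay within 500 bp of 72.8% of gained summits (70.4 to 75.1), 77.9% of kept and 39.6% of missing summits (29.5 to 50.4). By base, 3.79% of the genome lies that close to a vehicle H3K27ac peak. The FOSL1 comparison regions had such a peak at 69.3% (68.9 to 69.7), close to the share of gained regions. FOSL1 overlapped 61.2% of gained (58.6 to 63.7), 81.9% of kept (75.9 to 87.0) and 46.2% of missing regions, while FOSL1 regions cover 0.552% of the genome. The FOSL1 share of gained regions was 20.7 points below that of kept regions (interval −26.1 to −14.3) and 15.0 points above that of missing regions (4.51 to 25.2). Gained minus missing ranged widely, at 40.6 points with FOSL1 peaks of a fold of at least 5 (4.40% of missing regions), 47.1 with RELB regions of a fold of at least 5 and 8.96 with a self-match limit of 0.5. At 304 gained regions, 21.2%, neither H3K27ac nor FOSL1 was called in vehicle. Of the 391 gained regions without vehicle H3K27ac, 73.2% held an NF-κB match, against 62.8% of those with it.

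After 6 h of TWEAK, the share of gained regions with H3K27ac was 78.2% (76.0 to 80.3). A peak was called only after TWEAK at 98 gained regions and only in vehicle at 20, or 4.90 per region of the other kind (exact 95% interval 3.01 to 8.37). At the FOSL1 comparison regions, the numbers were 1027 and 3173, a ratio of 0.324 (0.301 to 0.347). The direction at gained regions turned when the H3K27ac peak had to overlap the region itself, with 78 and 131 regions and a ratio of 0.595 (0.444 to 0.794). Limiting H3K27ac to peaks with q up to 0.001 gave 1.73 (1.15 to 2.61). Gained regions with an NF-κB match had 75 and 13 such peaks and those without 23 and 7. At kept regions, 1 peak was called only after TWEAK and 6 only in vehicle. At 30 min of TWEAK the gained regions had 40 peaks called only after treatment and 91 only in vehicle. With TNFα they had 134 and 38 at 30 min and 180 and 4 at 6 h. All 4 ratios use the same vehicle list.

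Gained RELB regions were for the most part sites of RELA after TNFα. The RELA list of 30 min of TNFα held 78.8% of them (76.6 to 80.9) and that of 6 h of TNFα 78.0% (75.8 to 80.1). At missing regions the shares were 28.6% (19.6 to 39.0) and 36.3% (26.4 to 47.0). How much of the genome these RELA lists cover was not computed. RELA was called at 193 gained regions in vehicle (13.4%), at 330 after TWEAK for 30 min and at 13.8% after TWEAK for 6 h. At kept regions RELA was called at 67.8% in vehicle and, of 199, at 177 and 185 after TNFα for 30 min and 6 h. For vehicle RELA, gained minus kept was −54.4 points (−60.7 to −47.4). RELB itself was called at 17 gained regions (1.18%) at 30 min of TWEAK, at 18 (1.25%) at 30 min of TNFα and at 191 (13.3%) at 6 h of TNFα, whereas 75.4% of kept regions were called at 6 h of TNFα. Gained regions called for RELB at 6 h of TNFα had a median fold enrichment of 10.0 in the TWEAK list, against 6.59 for the others, and FOSL1 at 73.8% against 59.2% (difference 14.6 points, 7.41 to 20.9). The lists differ in length, and the part of length in these shares was not tested.

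Gained regions outside the RELA list of 30 min of TNFα differed from those in it. The NF-κB match was present at 41.0% of these 305 regions against 72.3% of the 1132 in the list, and 6.89% against 23.1% lay at promoters. FOSL1 was called at 45.9% and 65.3%. No other RELA or RELB list held 174 of the gained regions. They held an NF-κB match at 39.1% (31.8 to 46.8), an AP-1 match at 43.1% and vehicle H3K27ac at 59.2%. For NF-κB the difference from the other gained regions was −30.2 points (−37.6 to −22.4). Their median fold enrichment was 5.79.

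**Figure D3:**
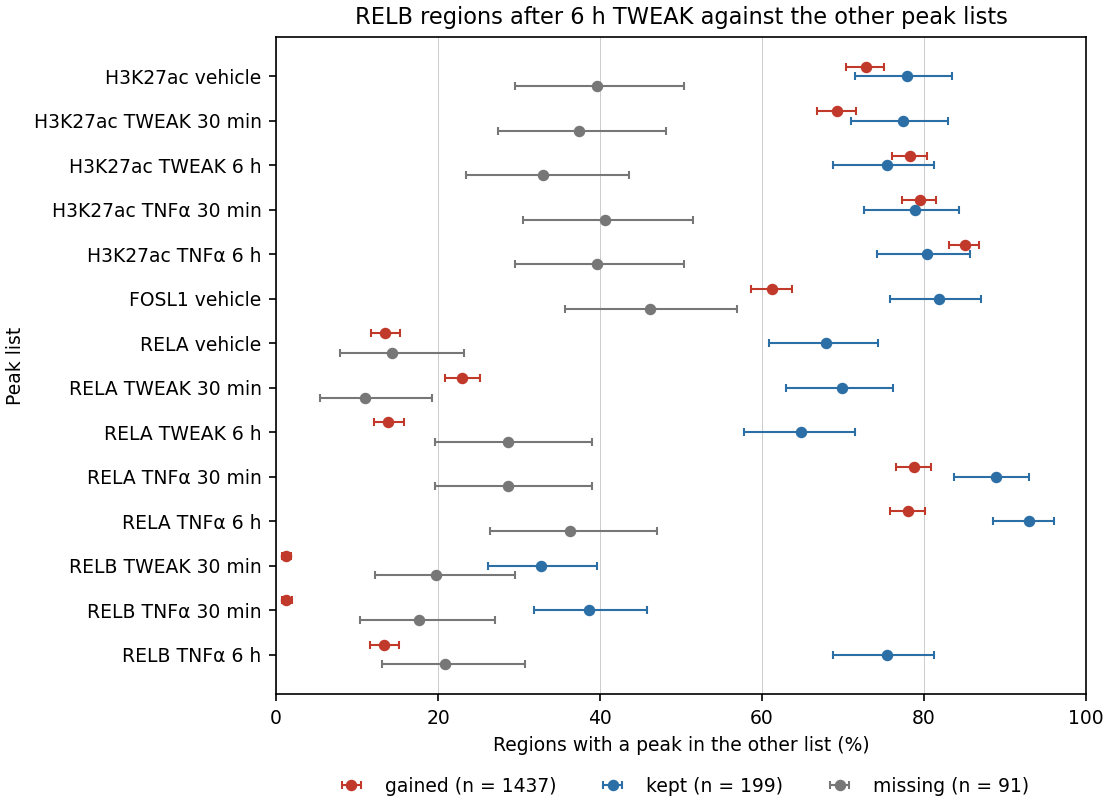
Percentage of gained, kept and missing RELB regions with a peak in each of the other lists, with exact 95% intervals. H3K27ac peaks were counted within 500 bp of the summit and the other peaks by 1 bp overlap. Gained regions are near 78% in both RELA lists after TNFα but at 13.3% or less in the other RELB lists.

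Fold enrichment, the deposited ratio of ChIP signal over background at the summit, ranked gained below kept regions within the TWEAK list. The median was 6.79 for gained regions (highest 20.3) and 12.2 for kept regions (1.93 to 41.4), at the 46.8th and 88.7th percentile of the list. With a self-match limit of 0.5 these percentiles were 49.6 and 53.4, so the gap rests on the limit. Of the 50 strongest TWEAK regions 43 were kept, of the 100 strongest 66 and of the 500 strongest 136. The strongest gained region ranked 17 of 1636. In the vehicle list the median was 3.87 for missing (1.89 to 7.64) and 5.35 for kept regions (1.95 to 40.2), and the strongest missing region ranked 40 of 290. Fold enrichment was higher in the TWEAK list at 166 of 199 kept regions, with medians of 12.2 and 5.37 at the same regions. The lists were called separately, so these values are set side by side and not tested. By rank within each list, 126 of the 197 kept regions ranked outside tandem repeats in both stood relatively higher after TWEAK.

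**Figure D4:**
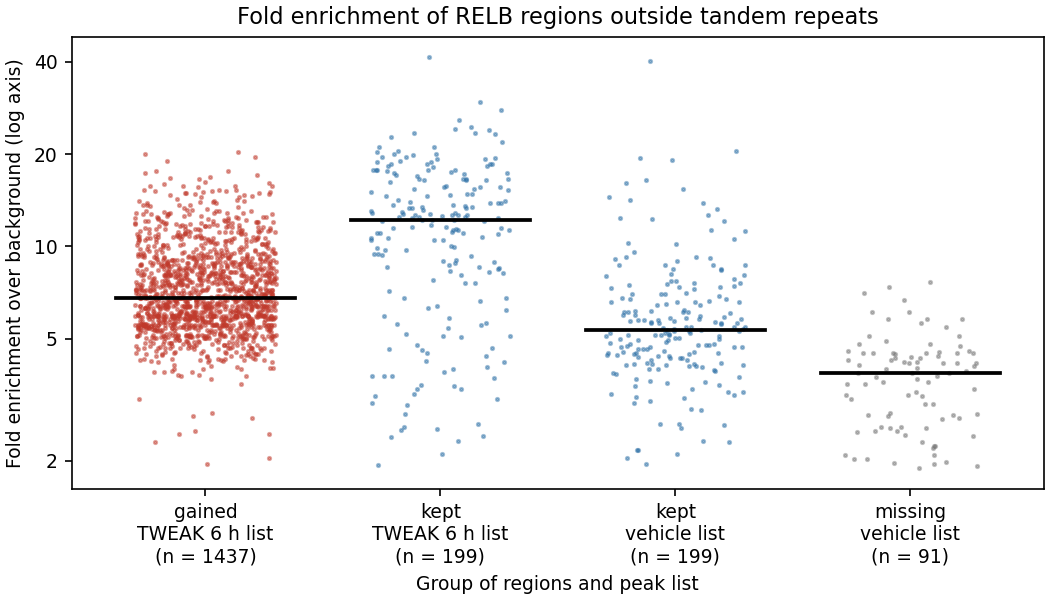
Fold enrichment over background, on a log axis, of each RELB region outside tandem repeats by group and peak list, with the median as a black bar. In the TWEAK list kept regions have a median of 12.2 and gained regions of 6.79. In the vehicle list the medians are 5.35 and, for missing regions, 3.87.

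Within the gained regions, stronger peaks held the NF-κB match more often. It was present at 55.0% of the lowest, 65.2% of the next, 68.6% of the third and 73.8% of the highest quartile group by fold enrichment. The highest exceeded the lowest by 18.8 points (11.9 to 25.5). The AP-1 share went from 31.1% to 43.7%, and that of RELA at 30 min of TNFα from 68.6% to 90.8%. RELA at 6 h of TWEAK was called at 5.56% of the lowest and 28.7% of the highest group. For vehicle H3K27ac the difference was −0.627 points (−6.97 to 5.72).

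Kept regions with and without an NF-κB match differed. Those with an NF-κB match (90) had vehicle H3K27ac at 92.2%, FOSL1 at 86.7% and a promoter position at 25.6%, and 13.3% lay over 50 kb from a start site. Those without (109) had vehicle H3K27ac at 66.1% and a promoter position at 5.50%, and 49.5% lay over 50 kb away. In all 10 RELA and RELB lists 34 kept regions were called, of which 2 held an NF-κB match and 0 an AP-1 match. Without these 34 the NF-κB share of kept regions was 53.3% and the AP-1 share 33.9%. The strongest region of both lists was among them. It lies at chr13:109424119-109424353, 362358 bp from a start site of IRS2, with a fold enrichment of 41.4 after TWEAK and 40.2 in vehicle. Its sequence matched the mitochondrial genome in 0.922 of its 31-base words. Such a match in most words was found at 9 kept, 1 gained and 1 missing region. Leaving those out gave 1436 gained, 190 kept and 90 missing regions. The next 3 kept regions, nearest to ELMOD1, NECTIN1 and MAP4K4, had fold enrichments of 29.5, 27.9 and 25.7 in the TWEAK list and 11.2, 8.66 and 14.1 in the vehicle list. They were called in all 10 lists, had no H3K27ac peak and no NF-κB match, and had self-matches of 0.354, 0.384 and 0.385, near the repeat limit. The fifth and sixth, downstream of MCM5 and in an intron of RAD51B, held an NF-κB match and H3K27ac. Their fold enrichments were 24.5 and 24.2 after TWEAK and 5.62 and 8.98 in vehicle. Several other kept regions lay in clusters nearest to the same gene, such as TPTE, OR4F16 and CCDC200, with folds down to 1.93 after TWEAK. These clusters were not left out of the kept group.

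The 12 gained regions of highest fold enrichment lay between 16.2 and 20.3 in the TWEAK list, and all carried H3K27ac in vehicle and after 6 h of TWEAK. All 12 were also called for RELA at 6 h of TNFα, 9 held an NF-κB match and 8 overlapped FOSL1. The strongest lay in an intron of CRTAC1, which encodes a secreted matrix protein, 1500 bp from a start site, at chr10:97882597-97882905 (fold 20.3). It was followed by a region in an intron of the proteasome subunit gene PSMB7 at chr9:124392905-124393179 (20.1). PSMB7 and NCK1, an adaptor of receptor tyrosine kinases, with a fold of 16.9, and IFNGR2, a subunit of the interferon gamma receptor, with 16.7, were those without an NF-κB match. TNIP2 encodes a partner of A20 that restrains NF-κB, and its promoter region at chr4:2746151-2746431 had a fold of 19.6. This region counts as promoter by distance, 145 bp upstream of an annotated start site, and lay in an intron of TNIP2. ALG6, which acts in N-glycan synthesis, and FAAH2, a fatty acid amide hydrolase, also had gained promoter regions, 152 and 155 bp upstream, with folds of 17.5 and 17.1. The remaining regions lay near the transcription factor gene KLF11 (18.98), in an intron of the ubiquitin ligase gene RNF165 (17.6), near SUSD1 (17.3), near ABHD17C (16.6) and in an intron of the calpain gene CAPN2 (16.2). The nearest gene is a matter of position, and no expression was measured here.

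The 6 missing regions of highest fold enrichment lay between 6.09 and 7.64 in the vehicle list. They were in introns of CDH8, BICC1, LRP1B and ATG7 and between genes nearest to TUBA3C and GBE1. None of the 6 had H3K27ac in vehicle or after 6 h of TWEAK, FOSL1, or a match to NF-κB or AP-1. All 6 were called in at least 2 of the other RELA and RELB lists. Of all 91 missing regions, 35 were in the vehicle RELB list alone.

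Genes of the NF-κB system itself often had a gained RELB region nearby. Of 19962 protein-coding genes, 10.2% had a gained region within 50 kb of a start site, 1.43% a kept region and 0.321% a missing region. Of the 127 genes of 14 lists on NF-κB signalling, its known targets and related families, 47 (37.0%) had a gained region, 15 (11.8%) a kept region and 0 a missing region. Neighbouring genes share regions, and the lists were drawn up with earlier results of these data known, so the counts describe and do not test. The 47 genes shared 48 gained regions, of which 40 held an NF-κB match, 45 were called for RELA at 30 min of TNFα and 15 lay within 1 kb of a start site of a listed gene. Of the 15 kept regions near these genes, 14 held an NF-κB match, and all 15 had vehicle H3K27ac and RELA at 30 min of TNFα.

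All 5 NF-κB subunit genes were near a RELB region, 4 a gained one and 1 a kept one, against 10.2% and 1.43% of all protein-coding genes. The RELB promoter itself had a gained region 85 bp upstream of its start at chr19:45001292-45001499, with a fold of 10.7. NFKB1, which encodes p105 and p50, had a gained region 25 bp upstream (12.1) and another inside the gene (5.86). REL had one 20 bp into the gene (6.96) and RELA one 101 bp upstream (6.13). NFKB2, which encodes p100 and p52, instead had 2 kept regions at its start sites, with folds of 11.0 and 14.2 after TWEAK and 6.17 and 4.72 in vehicle.

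Inhibitors of the pathway were also represented. NFKBIA, the IκBα gene, had a kept region close to its start with a fold of 18.1 after TWEAK and 9.23 in vehicle, and a gained region at chr14:35404716-35405024 (6.95). NFKBIE, encoding IκBε, had gained regions 90 bp upstream (11.1) and 1977 bp downstream (6.24) of an annotated start site, both inside the gene. BCL3, an atypical IκB protein, had 3 gained regions, with folds of 7.78, 6.05 and 5.01. Of the A20 group, 5 of 9 genes had a gained and 4 a kept region, against 10.2% and 1.43% of all protein-coding genes. ITCH is in both counts through distant regions, a gained one 28376 bp away (4.37) and a kept one 33613 bp away in an intron of DYNLRB1 (5.53). TNFAIP3, which encodes A20, had a kept promoter region at chr6:137866911-137867347 with a fold of 21.0 after TWEAK and 9.12 in vehicle, and a gained intronic region 2162 bp downstream of a start (8.19). That gained region had an H3K27ac peak after 6 h of TWEAK and none in vehicle. TNIP1 likewise had a kept promoter region (8.42 and 5.71) and a gained region in an intron, 2438 bp upstream of an annotated start site (11.5). The deubiquitinase gene CYLD had a kept region 140 bp upstream (19.2 and 8.38).

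Of 11 genes of the TWEAK and noncanonical pathway, 4 had a gained and 3 a kept region, against 10.2% and 1.43% of all protein-coding genes. The neighbours BIRC2 and BIRC3 share the regions counted for them. At TRAF2 there was a kept intronic region 645 bp from a start site, with a fold of 22.8 after TWEAK and 8.06 in vehicle, and a gained one (6.62). BIRC3, a ubiquitin ligase of the TRAF complex, had a kept region 149 bp upstream (16.5 and 6.97), and a second one lay 1105 bp upstream of the neighbouring BIRC2 (12.6 and 4.06). The gained region 44910 bp from TNFRSF12A, the TWEAK receptor gene, lay at the start of IL32 (8.02). No region was found within 50 kb of MAP3K14, TRAF3, CHUK or IKBKB.

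Among TNF receptor genes, 7 of 12 had a gained and 4 a kept region, against 10.2% and 1.43% of all protein-coding genes. Some regions are shared: TNFRSF10C and TNFRSF10D share a gained region, and TNFRSF10C also counts the gained and kept regions of TNFRSF10B. The regions counted for TNFRSF1A and TNFRSF1B lay 18355 and 31096 bp away, in PLEKHG6 and TNFRSF8. FAS, a death receptor, had a gained intronic region (11.0) and a kept region 19660 bp downstream (12.6 and 4.39). TNFRSF10B, a TRAIL receptor, had a kept region 5786 bp upstream (19.3 and 4.94) and a gained one in an intron (10.3). TNFRSF9, a costimulatory receptor, had a gained region in an exon, 59 bp upstream of an annotated start site (9.34), with no H3K27ac in vehicle or after TWEAK. IL23A, a subunit of interleukin 23, likewise had a gained region in an intron, 109 bp upstream of an annotated start site (9.16), without H3K27ac.

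Of 11 cytokine genes 5 had a gained region. IL32 (8.02) had an H3K27ac peak after 6 h of TWEAK but none in vehicle. IL1A and IL1B shared 2 gained regions between them (7.46 and 6.49), and LIF had one 4216 bp upstream (7.69). Of 14 inflammatory chemokine genes 2 had one, CCL20 (7.80) and CCL28 (5.78), a share close to that of all genes (10.2%). CXCL8 had none. The lymphoid chemokine genes CCL19 and CCL21 shared 1 gained region (8.28), which had no H3K27ac peak in vehicle or after 6 h of TWEAK. Of 13 matrix and migration genes 6 had a gained region. The collagenase gene MMP1 had one in an intron, 133 bp upstream of an annotated start site (8.14), which MMP3 and MMP10 share by distance. LAMB3, which encodes a laminin chain, had a gained region 123 bp into the gene (7.02) and a weaker one farther away (5.05), and PLAU, encoding urokinase, had one 19996 bp upstream (6.91). The adhesion genes ICAM1, ICAM4 and ICAM5 share 1 gained region (5.09). Of the AP-1 family, FOSL1 had 3 gained regions within 50 kb (8.09, 6.55 and 4.30), FOSB 1 (6.93) and FOSL2 1 (4.23), while the regions near JUNB (7.79 and 3.59) and MAFF (16.4) were kept. Of 9 survival genes 1 had a gained region, MCL1 (6.77), and of 12 antigen presentation genes 2 did, B2M (6.16) and PSMB10 (4.77). With so few genes these counts do not stand apart from the 10.2% of all genes. EFNA1 had none.

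**Figure D5:**
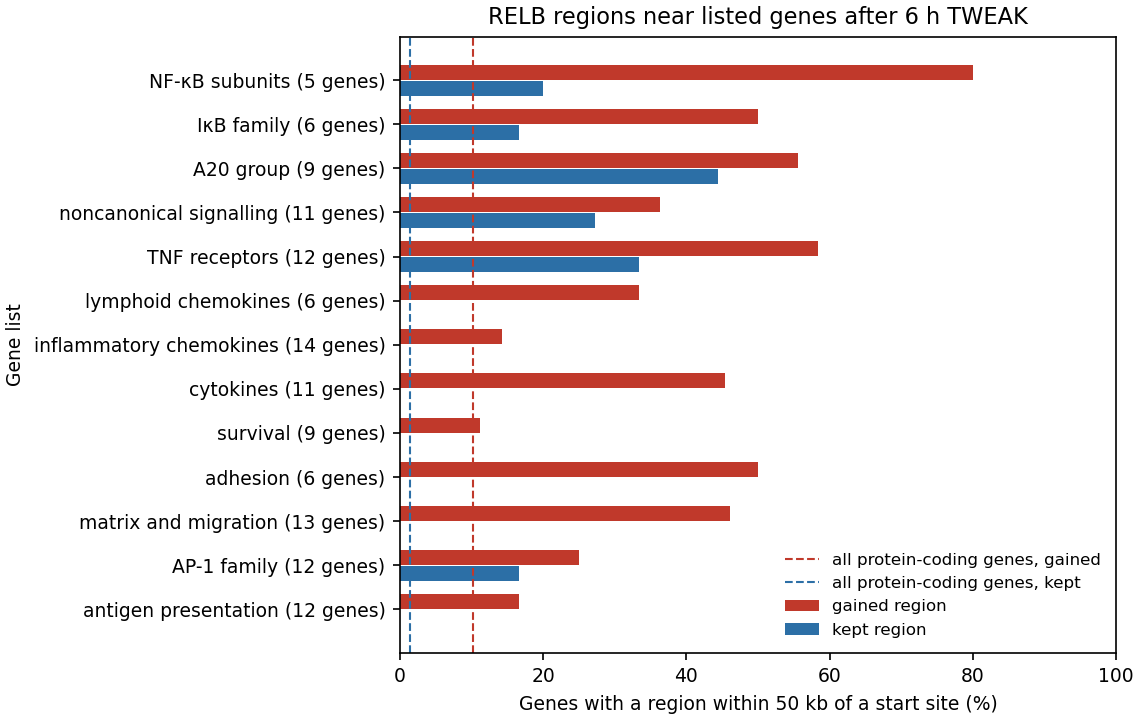
Percentage of the genes of each list with a gained or kept RELB region within 50 kb of a start site, with dashed lines at the shares of all protein-coding genes (10.2% gained, 1.43% kept). Kept regions are near the subunit, inhibitor, signalling, receptor and AP-1 lists and near none of the other 7 lists (lymphoid and inflammatory chemokines, cytokines, survival, adhesion, matrix and migration, antigen presentation).

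By number of gained regions within 50 kb, SMAD3, a transducer of TGFβ signals, led with 5, the strongest at a fold of 11.9, beside 1 kept region with folds of 12.1 after TWEAK and 4.77 in vehicle. EML3 and RSRP1 followed with 4 each. A further 32 genes had 3, among them BCL3, FOSL1 and BHLHE40, and 1788 genes had 1. Genes in dense neighbourhoods share these regions, so several of the 32 count the same ones.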

How the data were processed

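ChIP-seq of 48 samples (16 conditions of 3) was grouped by the labels. The authors mapped paired-end reads to hg38 with Bowtie2 2.5.0 and called peaks with MACS2, version not given in the sources used here, against input and without a shifting model. The submitters' processing notes also name SAMtools 1.18 and deepTools 3.3.2. Each deposited list merges a condition's samples. The authors' fold enrichment (column 7) is a ratio over background at the summit, and the deposited −log10 q is column 9. Both were used to rank or filter within 1 list. Fold enrichments of kept regions are also set side by side between the TWEAK and vehicle lists, without a test. The 16 deposited columns of −log10 p were not used. How multiply placed reads were treated is not given in the sources used here, and this can affect regions in repeats. Whether all 3 samples entered the merged RELA list of TNFα at 30 min is unclear.

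Overlaps, self-match and motif counts were computed with Python 3.11.15, numpy 2.4.6, pandas 2.3.3, scipy 1.17.1 and pysam 0.24.0, with GENCODE 44 for start sites and exons. Unknown bases were left out of the self-match. Shares carry exact (Clopper-Pearson) and differences Newcombe 95% intervals. A share at promoters counts summits within 1000 bp of a protein-coding start site. Distances use the starts of all annotated transcripts of protein-coding genes, so a summit upstream of a start site can lie inside the gene. The functions were tested on simulated data. The members, gene lists and comparisons were chosen with earlier results of these data known. Named were the 12 gained, 6 kept and 6 missing strongest regions by fold enrichment, each with the closest gene, the genes with most gained regions, listed genes with a region within 50 kb, and the 6 genes whose tracks the study shows. There were 29 planned and 5 added alternatives. One listed gene and one sequence are not reported here.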

Additional observations from a re-analysis of the deposited data

How the results depend on the processing

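No paired analysis was possible because each condition has 1 merged list, and for the same reason no replicate could be left out. The 222 alternative values computed cover the main results and the single shares of each group. Of the main results, 89 values stayed past 0 or not past 0 as before, or stayed close to the main number (for counts, within 1.5 times). Differences not past 0 could change sign and still be among them. Promoter gained minus kept did so with start sites of all genes (−4.21). H3K27ac in vehicle, gained minus kept (2.34), and TEAD gained minus missing (−3.76) did so with a self-match limit of 0.5. Another 16 moved, 6 newly passed 0, 5 were no longer past 0 and 1 reversed. Only a main result whose interval lay to one side was counted as reversed. Of the single shares, 67 stayed within the main interval and 38 moved outside it. The number of regions moved most. With a self-match limit of 0.5 there were 415 kept and 250 missing regions. With no repeat filter there were 2212 kept and 1891 missing regions, beside 1826 gained. With a fold of at least 5 in both lists there were 115 kept and 14 missing regions. With both lists at the length of the shorter, 172 were gained, 118 kept and 172 missing, which follows from the equal lengths. H3K27ac peaks gained per lost at gained regions turned to 0.595 when the peak had to overlap the region, and the cause was not tested. The difference of gained minus missing regions at promoters was no longer past 0 with start sites of all genes (2.27 points) or a fold of at least 5 (12.3), and gained minus kept passed 0 with a self-match limit of 0.5 (11.5). For H3K27ac in vehicle, gained minus kept passed 0 with a peak overlapping the region (−11.2), at a q of at most 0.001 (−7.66) and without the regions in all 10 lists (−7.82). For AP-1, gained minus kept was no longer past 0 at 100 bp (2.23), at a fold of at least 5 (7.64) and without the regions in all 10 lists (2.60). For TEAD, gained minus missing passed 0 at 400 bp (11.3). TEAD gained minus kept passed 0 at a self-match limit of 0.5 (−5.68), with its sign changed from the main 3.01. The FOSL1 difference ranged from −26.9 to −14.3 points against kept and from 8.96 to 47.1 against missing regions. The NF-κB difference ranged from 12.3 to 41.5 points against kept and from 59.9 to 68.2 against missing regions. The median percentile of kept regions was 90.9 by the −log10 q and 53.4 at a self-match limit of 0.5, where that of gained regions was 49.6. Protein-coding genes near a gained region numbered 746 at 10 kb, 3354 at 100 kb and 1267 by nearest gene alone, and listed genes 26 at 10 kb and 31 by nearest gene. Alternatives without mitochondrial matches, with unknown bases counted as mismatches and without the regions in all 10 lists were chosen after seeing the data. The depth of the samples is unknown and limits each count.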
